A study of Mus musculus with 5 samples.

Results

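Ddx4, the mouse homologue of Vasa, encodes a DEAD-box RNA helicase of the germ line, and its promoter was examined for Pcgf6 occupancy in embryonic stem cells (ESCs). Ddx4 was 1 gene of the 22219 protein-coding genes whose transcription start site (TSS) could be measured. It was chosen by these same libraries, since its promoter had the highest read depth over input with both Pcgf6 antibodies. This held among the 20223 promoters with at least 10 input fragments. The enrichment of Ddx4 over input is therefore given as a description, without a test. The depth was read in all 5 coverage files over 2 kb on each side of the TSS, over the gene body and over 100 kb on each side of the gene.

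The 5 libraries came from CCE cells, an established mouse ESC line kept in serum medium with LIF for under 15 passages. Disuccinimidyl glutarate plus paraformaldehyde served as cross-linkers. Chromatin bound by Pcgf6 was pulled down with a Santa Cruz antibody (2 replicates) or an Abcam antibody (2 replicates), and 1 input library was sequenced without pull-down. No allele or treatment set the groups apart, no library with a control antibody or from cells lacking Pcgf6 was analysed here, and gene expression was not measured in these libraries.

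Pcgf6 is a Polycomb group RING finger protein of a variant PRC1 complex that also holds the DNA-binding proteins E2F6, Mga and Max. Polycomb complexes modify histones and are best known for keeping genes silent, and the Pcgf6 complex is known in ESCs for its occupancy of germ cell and meiotic genes. Ddx4 protein marks germ cells from the primordial germ cells of the gonad onwards and acts in the piRNA pathway, in which small RNAs silence transposons in the male germ line.

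The gene (ENSMUSG00000021758.7) lies on the minus strand of chromosome 13 from 113388541 to 113442518 in NCBIM37 (mm9), and spans 53978 bases. Both annotated transcripts, ENSMUST00000075748.5 and ENSMUST00000099166.2, begin at the same base, 113442518, so the gene has a single annotated TSS. They differ by an exon of 78 bases from 113431358 to 113431435, which only the latter holds. The first exon is 35 bases long and is wholly untranslated, and the start codon lies in the second exon, 907 bases downstream of the TSS.

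The sequences on either side of the first exon lie under the highest ChIP depth at Ddx4 and are written here 5′ to 3′ on the strand of the gene. The first is the 250 bases upstream of the TSS, chr13:113442519-113442768, and the second is the first 200 bases of the first intron, chr13:113442284-113442483. Capitals mark GGCGGGAA, an E2F-type sequence (read as TTCCCGCC where it lies on the other strand), and CACGTG, the canonical E-box that dimers of Max with Mga or Myc bind.
Ddx4 upstream: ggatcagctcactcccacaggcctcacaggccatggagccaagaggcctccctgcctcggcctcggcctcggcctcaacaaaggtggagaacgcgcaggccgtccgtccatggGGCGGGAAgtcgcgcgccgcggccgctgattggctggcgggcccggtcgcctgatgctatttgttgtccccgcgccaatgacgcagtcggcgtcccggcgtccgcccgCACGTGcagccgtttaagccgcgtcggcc
Ddx4 first intron: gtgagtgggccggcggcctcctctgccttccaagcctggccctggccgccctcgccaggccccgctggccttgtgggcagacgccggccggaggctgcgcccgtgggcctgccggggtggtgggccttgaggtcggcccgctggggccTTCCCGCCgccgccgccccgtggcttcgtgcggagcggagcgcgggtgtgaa

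The promoter is rich in CpG. The upstream 250 bases were 70.4% G or C, above 89.5% of all promoters, and held 31 CpG dinucleotides against a median of 9. GGCGGGAA stood 137 to 130 bases upstream of the TSS, and again on the other strand 183 to 190 bases downstream of it. CACGTG stood 29 to 24 bases upstream. The motifs were chosen with this sequence known, and a match is a run of letters, not a site shown to be bound. Both strands were searched, and these motifs did not overlap each other.

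Few promoters carried both motifs. In the 250 bases upstream of the TSS, 6.48% of the 22219 promoters held CACGTG, 2.40% held GGCGGGAA and 41 (0.185%) held both, Ddx4 among them. A T-box sequence, AGGTGTGA, was not found within 250 bases of the Ddx4 TSS, a window in which 1.69% of all promoters held it. CGNGGGCG was found once on the other strand, 81 to 88 bases downstream of the TSS, and 20.3% of all promoters held it in that window.

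The depth of the libraries sets the precision at a single promoter. The input held 22906176 fragments and the 4 ChIP libraries between 2290034 and 2850542. The replicates of an antibody were largely the same fragments. Of the replicate 1 positions, 88.0% with Santa Cruz and 88.3% with Abcam recurred in replicate 2 at a shift of 1 or 15 positions. Each antibody was therefore counted as 1 library, with the mean depth of its 2 files as its value, and no SD between independent replicates could be given. Between the antibodies, 1.11% of the Santa Cruz replicate 1 positions were shared with Abcam replicate 1, against 0.227% at shifts of 1 to 20 positions. At Ddx4, 2 of 31 were shared, against a median of 1 at those shifts. Both antibodies were set against the same input, so an error in the input at Ddx4 moves both ratios together.

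Depth at the Ddx4 promoter was about 10 times that of the input with both antibodies. Over 2 kb on each side of the TSS (113440518 to 113444518), the mean depth was 2.40 and 2.47 reads per base in Santa Cruz replicates 1 and 2. It was 3.0 and 3.15 in Abcam replicates 1 and 2, and 2.40 in the input, which was sequenced far more deeply. Divided by the mean depth of each library over the genome, these became 9.27 and 9.52 with Santa Cruz, 9.61 and 9.78 with Abcam, and 0.931 in the input. All 4 ChIP files thus lay far above the input at this promoter, and the 2 files of an antibody differed little, as files of largely the same fragments must. The ratio to input was 10.1 with Santa Cruz (9.96 and 10.2 in the 2 files) and 10.4 with Abcam (10.3 and 10.5).

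The fragment counts behind these ratios were small. Counted once per position, 33 Santa Cruz fragments, 47 Abcam fragments and 32 input fragments had their middle in the window. The ratio of fragments to input, scaled by the library totals, was 9.01 with Santa Cruz (95% exact Clopper-Pearson interval 5.37 to 15.1) and 10.4 with Abcam (6.51 to 16.9). These intervals cover counting error only. The 47 Abcam fragments pool 2 files of 39 positions each, and 31 of the 39 in replicate 1 were matched in replicate 2. Any shared fragment missed by the matching would be counted in both files, which the interval does not cover. None of the 33 or 47 fragments lay at a position that the input also held. With only 32 input fragments in the window, few matches would arise at random positions, so nothing is drawn from this.

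The excess sat close to the TSS. Of the fragments in the window, 29 of 33 with Santa Cruz (87.9%) and 42 of 47 with Abcam (89.4%) were centred within 500 bases of the TSS. The ratio to input was 19.6 with Santa Cruz and 19.5 with Abcam over 0.5 kb on each side, where 16 input fragments lay. It was 11.3 and 12.5 over 1 kb, 8.23 and 8.85 over 3 kb, 4.04 and 4.52 over 5 kb, and 2.52 and 2.73 over 10 kb. The ratio thus fell with each wider window.

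The depth had its summit within about 150 bases of the TSS in every ChIP file. The highest depth was 16 reads in Santa Cruz replicate 1, 61.8-fold the genome mean of that file, from 87 to 99 bases downstream of the TSS. In Santa Cruz replicate 2 it was 17 reads (65.4-fold), 102 to 103 bases downstream, which is in the first intron. With Abcam the summit lay upstream, at 18 reads (57.7-fold) from 138 to 132 bases upstream in replicate 1 and 20 reads (62.1-fold) from 123 to 117 bases upstream in replicate 2. The Abcam summit of replicate 1 overlaps the upstream GGCGGGAA printed above, and the other 3 summits lie on none of the letters in capitals. The Santa Cruz summit of replicate 1 overlaps the CGNGGGCG match 81 to 88 bases downstream, which is not in capitals. Each overlap was in 1 of 2 files of largely the same fragments, so nothing is drawn from either. The input reached only 12 reads (4.66-fold), 472 to 482 bases downstream. The difference in summit position between the antibodies was not tested.

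**Figure D1:**
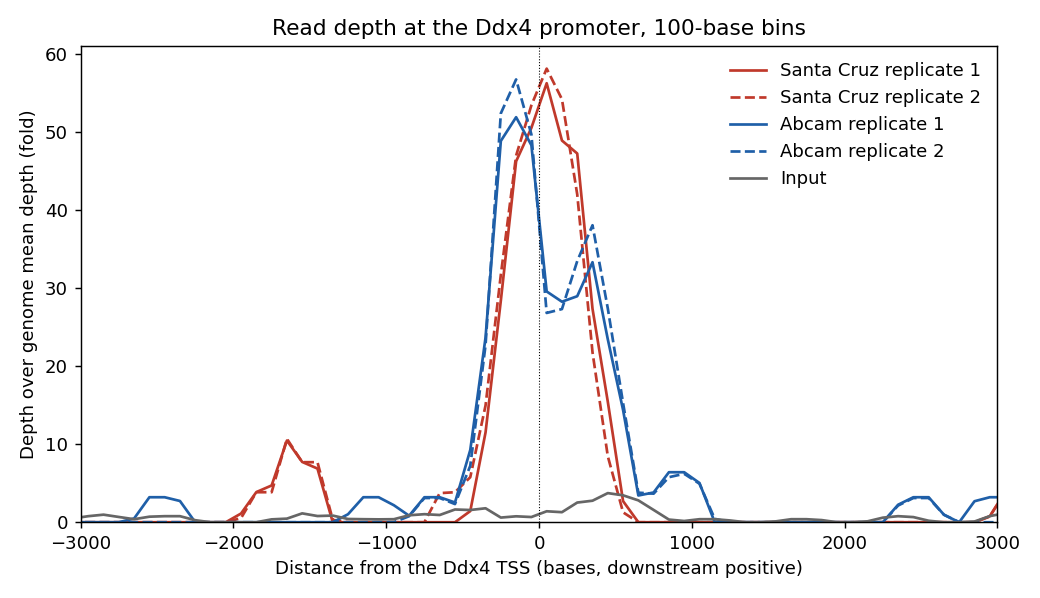
Depth in 100-base bins, divided by the genome mean of each file (y axis, fold), against the distance from the Ddx4 TSS in bases (x axis), with 1 line for each of the 5 libraries. The Santa Cruz lines peak just downstream of the TSS and the Abcam lines just upstream with a second, lower rise downstream, while the input stays below 4-fold throughout.

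The 2 antibodies gave profiles that looked different in shape, but they rest on 33 and 47 fragments and the difference was not tested. With Santa Cruz the mean relative depth was highest in the first 100 bases downstream of the TSS, at 57.2-fold the genome mean, and fell away on both sides. With Abcam it was highest between 200 and 100 bases upstream, at 54.3-fold, fell to 27.8-fold between 100 and 200 bases downstream and rose again to 35.7-fold between 300 and 400 bases downstream. Measured at 0.5 of its highest value, the Santa Cruz depth was 592 and 539 bases wide in its 2 files, and the Abcam depth around its upstream summit was 370 and 350 bases wide. The median middle of the fragments lay 14 bases downstream of the TSS with Santa Cruz and 19 bases upstream with Abcam.

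Among the Abcam fragments found in both replicates, 12 differed between the files by 1 position and 19 by 15 positions. The first set had its median middle 294 bases downstream of the TSS and the second 110 bases upstream (offset -110). With Santa Cruz the 13 and 15 such fragments had medians of -27 and 14 bases. The 2 sets thus lay apart with Abcam and near each other with Santa Cruz, and what tells the sets apart is not given in the sources used here.

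A few fragments lay outside the main rise. Between 1700 and 1600 bases upstream the Santa Cruz depth reached 10.6-fold the genome mean, from 3 fragments centred between 1800 and 1500 bases upstream, where the Abcam depth was 0. The Abcam depth reached 6.31-fold between 900 and 1000 bases downstream, from 2 fragments, where the Santa Cruz depth was 0. Each of these small rises was seen with 1 antibody and not the other.

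The input was not even across the promoter. It stood at 0.598- to 0.761-fold the genome mean in the 300 bases upstream of the TSS, where both ChIP signals were high, and between 2.52- and 3.73-fold from 200 to 600 bases downstream. A ratio taken bin by bin is therefore larger upstream than downstream for the same ChIP depth. The part of this unevenness in the ratios was not tested.

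The ratio of Abcam to Santa Cruz fragments at Ddx4, scaled by the library totals, was 1.16, with a 95% exact counting interval of 0.725 to 1.86. Ddx4 was chosen for its high depth with both antibodies, which favours like values, so this ratio is a description and no test of it is given. The interval leaves room for up to 1.86 times as many fragments with Abcam.

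Beyond its promoter, Ddx4 stood at the level of the input. Over the 51977 bases of the gene body more than 2 kb from the TSS, the depth ratio was 1.06 and 1.02 in the Santa Cruz files and 0.897 and 0.887 in the Abcam files. This rested on 50 Santa Cruz, 58 Abcam and 437 input fragments, with fragment ratios of 1.0 (0.731 to 1.34) and 0.941 (0.703 to 1.24). The gene body thus differs from the promoter by about 10 times within the same gene and the same libraries. Exons beyond 2 kb, 2727 bases in all, had ratios of 0.918 and 0.651 and held 0 and 1 fragments, and introns had 1.05 and 0.902. The first intron, 857 bases from 113441627 to 113442483, held part of the promoter signal and had ratios of 8.88 and 8.50.

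The neighbourhood was at the level of the input too. The 100 kb upstream had ratios of 0.932 with Santa Cruz and 1.09 with Abcam, and the 100 kb downstream of the gene 1.15 and 0.896. In 50 tiles of 5 kb, the tile that ends at the TSS had ratios of 4.14 and 5.03 and the tile that begins there 3.97 and 4.12. The other 48 tiles had medians of 1.03 and 1.05. Their lowest and highest ratios were 0.403 and 2.32 in the Santa Cruz data, and 0.133 and 2.26 in the Abcam data. At 2-fold or more, 3 of the 48 passed with Santa Cruz, 1 with Abcam and 0 with both. The highest Santa Cruz tile, centred 22.5 kb downstream of the TSS within the gene, rested on 8 fragments against 30 in the input.

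**Figure D2:**
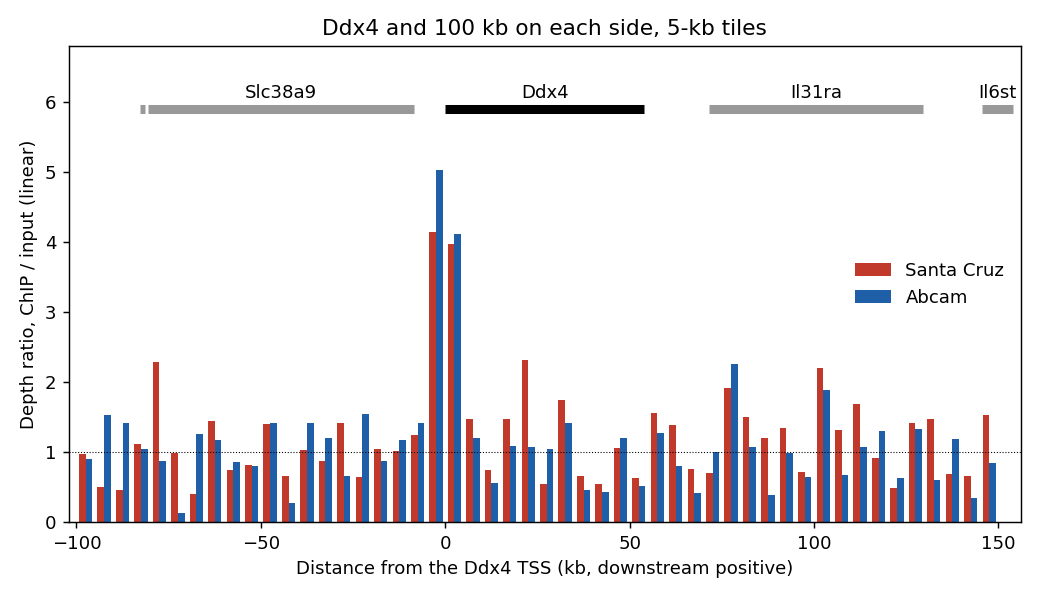
Depth ratio of ChIP to input (y axis, linear) in 5-kb tiles against the distance from the Ddx4 TSS in kb (x axis), with a bar for each antibody and the genes of the region as lines above. The pair of tiles at the TSS stands at 3.97 to 5.03, and every other tile stays below 2.4.

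The promoters next to Ddx4 did not reach its ratios. Slc38a9 (ENSMUSG00000047789.3), which encodes an amino acid transporter of the lysosome, starts 8466 bases upstream of Ddx4 on the opposite strand. It had depth ratios of 1.49 and 1.64 with 10 Santa Cruz, 12 Abcam and 57 input fragments. A separate gene model of the same name (ENSMUSG00000069056.1), 81343 bases upstream, had 1.43 and 0.727. Il31ra, a cytokine receptor gene that starts 71648 bases downstream, had 0.714 and 0.997 with 5, 8 and 56 fragments. All of these ratios lay far below those of Ddx4.

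Set among the 20223 promoters with at least 10 input fragments, Ddx4 had the highest ratio with each antibody. The median promoter had a ratio of 0.887 with Santa Cruz and 0.932 with Abcam, and the 99th percentile was 3.13 and 3.05. This place is what led to the choice of Ddx4 and is no support for it. By ChIP depth alone, not divided by the input, Ddx4 ranked 27th with Santa Cruz (9.40-fold the genome mean) and 46th with Abcam (9.70-fold) of 22219 promoters, whose 99th percentiles were 5.17 and 5.67. Its input depth of 0.931 was below the promoter median of 2.07, and 20.2% of promoters had less. Without the minimum of 10 input fragments Ddx4 ranked 29th and 26th.

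**Figure D3:**
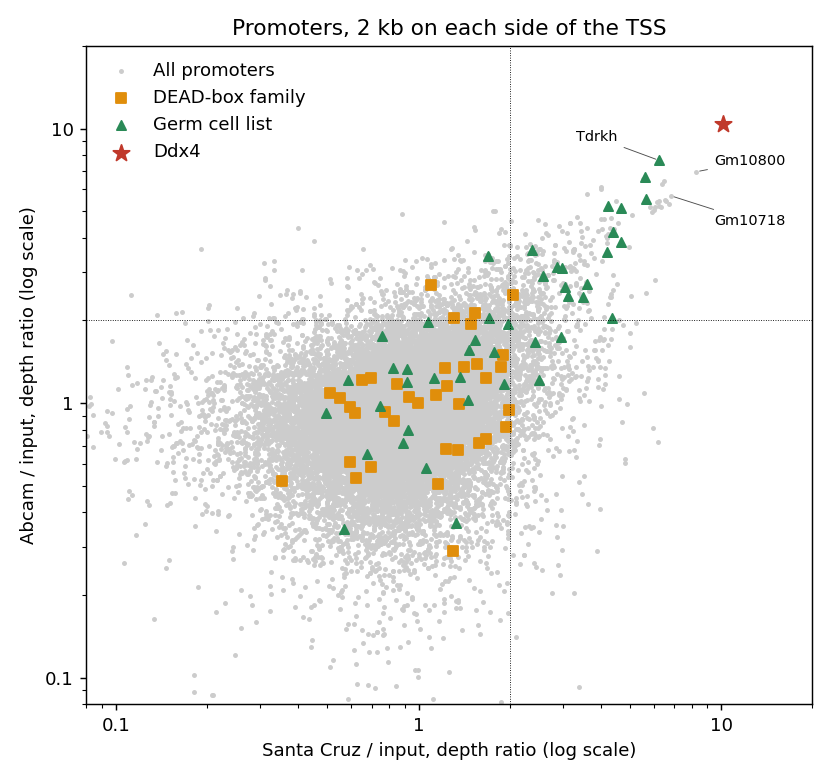
Depth ratio to input over 2 kb on each side of the TSS with Santa Cruz (x axis) and Abcam (y axis), both on log scales, for 19910 promoters (313 more lie below the axes), with dotted lines at 2-fold. Ddx4, the star, lies beyond all others on both axes, the germ cell list reaches into the upper right and the DEAD-box family stays near the middle.

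Among the 5 promoters nearest to Ddx4, by the distance between their pairs of log2 ratios, were Gm10800, Tdrkh and Gm10718. Tdrkh, which encodes a Tudor protein of the piRNA pathway, had ratios of 6.23 and 7.65 from 36 Santa Cruz, 51 Abcam and 50 input fragments, at a distance of 0.82. The predicted genes Gm10800 (8.25 and 6.96) and Gm10718 (6.81 and 5.69) had input depths of 18.7- and 8.98-fold the genome mean, whereas the input at Ddx4 was 0.931-fold. In ratio they resembled Ddx4, and in input depth they did not.

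Genes of the germ cell programme were compared with Ddx4 through a list of 46 germ cell genes, of which 45 had a promoter here, Ddx4 included. The list was drawn up with earlier results of these data known, so its count is not independent evidence. Over all promoters, 4.75% reached 2-fold with Santa Cruz, 4.66% with Abcam and 1.67% with both. Of the 44 germ cell genes other than Ddx4, 20 reached 2-fold with Santa Cruz, 19 with Abcam and 17 (38.6%) with both. Their median ratios were 1.84 and 1.75, against 0.887 and 0.932 for all promoters. The count was 24 at 1.5-fold with both (4.99% of all promoters), 8 at 3-fold (0.405%), and 21 at 2-fold over 1 kb on each side (2.14%). None of the 44 reached the ratio of Ddx4 with either antibody, which was fixed by the choice of Ddx4 as the highest promoter. The highest were 6.23 with Santa Cruz and 7.65 with Abcam, both at Tdrkh, and the lowest were 0.495 and 0.348.

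Of the 44 genes, 15 act in the piRNA pathway, and 4 of these reached 2-fold with both antibodies. The groups here and for meiotic chromosomes were formed, and listed genes below 2-fold named, after the values were seen. Besides Tdrkh, the 4 were Mov10l1, an RNA helicase that acts on piRNA precursors, with ratios of 4.20 with Santa Cruz and 3.56 with Abcam, Piwil2, which binds piRNAs, with 2.86 and 3.12, and Tdrd1, a Tudor scaffold protein, with 3.5 and 2.43. The other 11 had Santa Cruz ratios of 0.567 to 1.91 and Abcam ratios of 0.348 to 3.44. Among them were the other PIWI genes, Piwil1 at 0.913 and 1.19 and Piwil4 at 1.37 and 1.24. The medians of the 15 were 1.07 and 1.35, against 0.887 and 0.932 for all promoters. Stk31, a germ cell protein with a Tudor domain, had 5.60 and 6.67. The RNA-binding proteins of the DAZ family, which act on translation in germ cells, were Dazl at 3.12 and 2.45 and Boll at 4.66 and 5.14.

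Genes of meiotic chromosomes made up most of the rest of the 17. Of 6 listed genes of the synaptonemal complex, the protein zipper between paired chromosomes, 4 reached 2-fold with both antibodies, Sycp1 at 4.38 and 4.19, Sycp2 at 3.60 and 2.72, Syce1 at 4.35 and 2.04, and Tex12 at 4.21 and 5.24. Sycp3 at 1.78 and 1.53 and Syce2 at 1.47 and 1.56 did not. Of 4 listed genes of meiotic cohesin, the ring that holds sister chromatids, 3 did so, Rad21l at 4.68 and 3.85, Smc1b at 2.97 and 3.09, and Stag3 at 3.04 and 2.65, while Rec8 had 1.06 and 0.581. Hormad1, which acts at chromosome axes, had 2.38 and 3.62, while Hormad2 had 1.46 and 1.03. Several other listed genes of meiosis did not reach 2-fold with both antibodies either. Dmc1 had 1.71 and 2.03, Spo11 1.98 and 1.94, Mei1 2.42 and 1.67, Prdm9 1.13 and 1.23, and Stra8 0.495 and 0.922. The last 2 of the 17 were Taf7l and Slc25a31. Taf7l, a germ cell variant of a general transcription factor subunit, had 5.65 and 5.52. Slc25a31, an ATP carrier of germ cell mitochondria, had 2.59 and 2.90. That all 17 lay below Ddx4 in ratio was fixed by its choice, and the counting intervals of some overlapped its own. For Tdrkh the fragment ratios were 6.29 (3.98 to 9.85) and 7.23 (4.80 to 10.9), and for Taf7l 5.73 (3.03 to 10.6) and 5.13 (2.78 to 9.32), so the order among these neighbours was not resolved by the fragments.

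**Figure D4:**
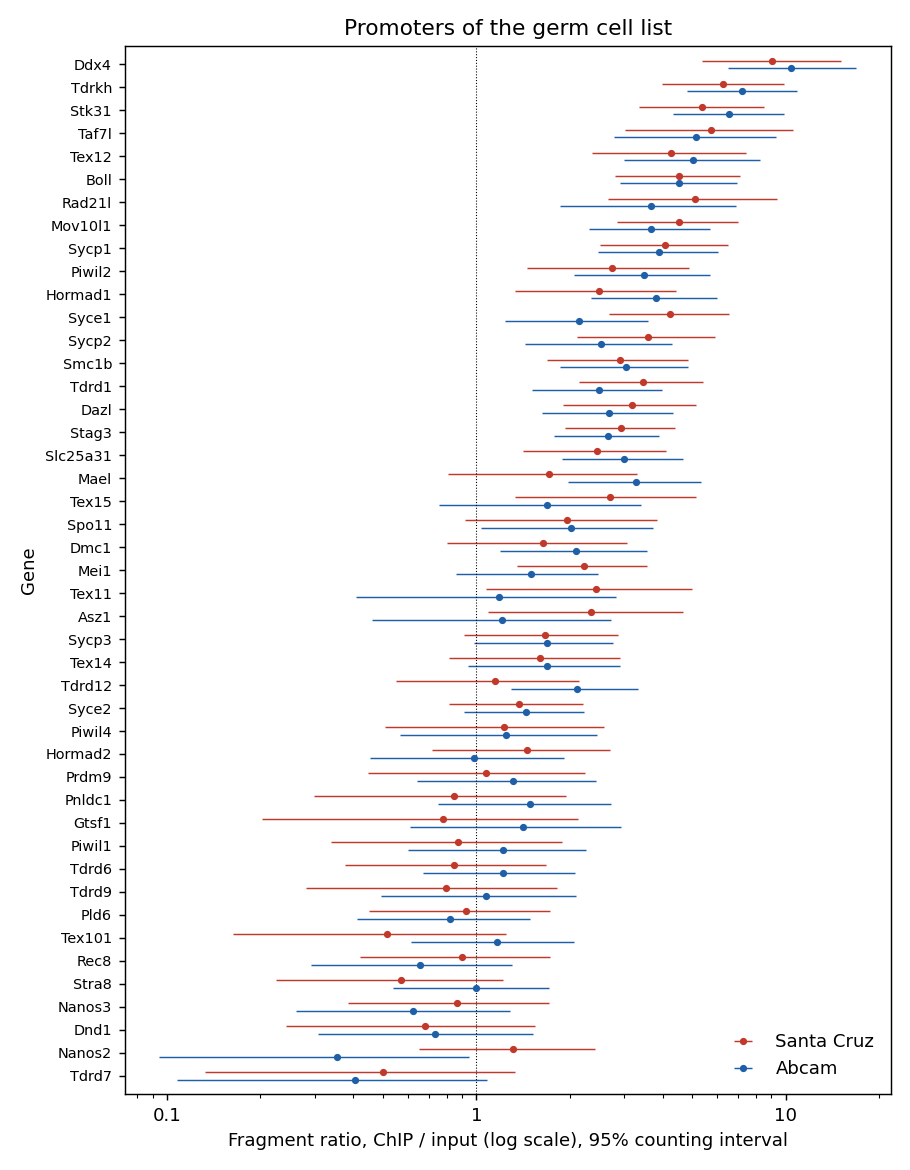
Fragment ratio of ChIP to input (x axis, log scale) at the promoters of the 45 germ cell genes (y axis), with points for each antibody and bars for 95% intervals that cover counting error only. Ddx4 is at the top at 9.01 and 10.4, the interval of Tdrkh overlaps that of Ddx4 with both antibodies, and the lower part of the list lies around 1.

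The other promoters of the DEAD-box family lay slightly above the level of all promoters in median ratio. That Ddx4 exceeded them was fixed by its choice as the highest promoter. The symbols of 37 other genes begin with Ddx and a digit. Of these 37, 1 reached 2-fold with Santa Cruz, 4 with Abcam and 1 with both. Among all promoters the shares at 2-fold were 4.75% with Santa Cruz, 4.66% with Abcam and 1.67% with both. The family share was thus lower with Santa Cruz and higher with Abcam, and with both antibodies it rested on 1 gene. These differences were not tested. The gene that passed with both was Ddx19b, an RNA export helicase, at 2.04 and 2.48. Ddx25, a helicase of the testis, had 1.54 and 2.13, Ddx50, a nucleolar helicase, had 1.31 and 2.04, and Ddx52 had 1.10 and 2.69. The family medians were 1.22 and 1.05, against 0.887 and 0.932 for all promoters.

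Sequence features of the Ddx4 promoter recurred in part among the other enriched promoters. In the 250 bases upstream of the TSS, CACGTG was found in 14.3% of the 336 promoters other than Ddx4 at 2-fold or more with both antibodies, against 6.48% of all. GGCGGGAA was found in 3.87%, against 2.40%, and both together in 6 (1.79%), against 0.185%. Among the germ cell genes, CACGTG was upstream of 8 of the 17 that reached 2-fold with both antibodies and of 7 of the other 27, and GGCGGGAA of 2 and 3. Within 250 bases on each side, Hormad1, Slc25a31 and Tex12 held both motifs among the 17, and Syce2 among the 27. In that wider window 0.612% of all promoters and 3.87% of the 336 held both. Tdrkh, the germ cell promoter nearest to Ddx4 in ratio, held neither. Both motifs hold a CpG, and the sets differed in CpG. In the 250 bases upstream, the median number of CpG was 11 in the 336 and 9 in all promoters. It was 17 in the 17 germ cell genes and 11 in the other 27. These shares were not tested, nor was the part of CpG content in them.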

How the data were processed

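Pcgf6 ChIP-seq and input DNA of CCE ESCs were analysed. Per the labels and file headers, the deposited values are a coverage signal, the whole-number depth of reads that the authors had extended to 300 bp on mm9, unscaled and not divided by the input. The submitters' processing notes name Bowtie 0.1.2.7. The treatment of duplicate reads is not given in the sources used here.

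Mean depth in a window was divided by the mean depth of the file over the genome (depth sum over 21 chromosomes, 2654895218 bases), and then by the same value of the input. Fragments were recovered from depth changes 300 bases apart and placed at their middle. In simulated coverage, mostly background, 99.9% of starts were exact at ChIP depth and 98.4% at input depth. In a simulated peak of 40 fragments 100% lay within 1 base, and the exact share there was not measured. A fragment of both replicates, matched at a shift of exactly 1 or 15 positions, counted once, giving 2561342 Santa Cruz, 3157715 Abcam and 22388107 input fragments. A start placed 1 base off would leave such a fragment unmatched and counted in both files. Nothing in the labels says that replicates were separate cultures. An exact binomial test between the antibodies was run but is not reported, since Ddx4 was chosen on the same depth and, in simulations, 0% of 200 promoters planted at 2-fold were recovered.

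Each gene had 1 TSS, that of most protein-coding transcripts (the upstream one on a tie), from the GENCODE annotation of NCBIM37. The RefSeq promoter sequence of Ddx4 (300 bases, table of GRCm38.p6) was checked to be identical to NCBIM37 there. Ddx4, the lists and the motifs were chosen with earlier results of these data known. Genes named were Ddx4, promoters within 100 kb, the 5 nearest in log2 ratios (some are not reported here), germ cell genes at 2-fold with both antibodies and DEAD-box genes at 2-fold with either (at most 5). Alternatives were windows, scalings, fragments in place of depth, another input level, a pseudocount, filters, folds and each replicate left out. Tools were numba 0.67.0 and numpy 2.4.6 for depth and fragments, scipy 1.17.1 for intervals and tests, and pandas 2.3.3 under Python 3.11.15.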

Additional observations from a re-analysis of the deposited data

How the results depend on the processing

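Ddx4 stayed above the input under each window, scaling, fragment count, input level and pseudocount tried. With Santa Cruz the ratio was 19.6 over 0.5 kb on each side of the TSS, 4.04 over 5 kb and 2.52 over 10 kb, and with Abcam 19.5, 4.52 and 2.73, because wider windows take in sequence at input level. Leaving out 1 replicate gave 9.96 to 10.2 (Santa Cruz) and 10.3 to 10.5 (Abcam). Files of largely the same fragments must give close values, so this is no check on the ratio. Ddx4 ranked 29th (Santa Cruz) and 26th (Abcam) with no minimum of input fragments, 27th and 46th by ChIP depth alone, and 40th and 24th over 5 kb. With at least 20 input fragments, or over 1 kb, it ranked 1st with both. Against the input level of the 100 kb around the gene (1.30-fold the genome mean), the ratios were 7.22 and 7.45, and with a pseudocount of 1 fragment 7.29 and 8.71. At 3-fold with both antibodies, 8 germ cell genes and 0 DEAD-box genes passed, and at 1.5-fold 24 and 2. The ratio of Abcam to Santa Cruz ranged from 1.02 to 1.04 with a replicate left out and from 1.03 to 1.26 under the other alternatives.

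No paired analysis was possible because the 2 replicates of an antibody are largely the same fragments, so each antibody is 1 library, and the input has 1. Depth limits these results: the Ddx4 promoter rests on 33, 47 and 32 fragments, and the median promoter on 6, 9 and 69.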
